A study of Mus musculus with 48 samples.

Results

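Expression of 9 genes of the Notch pathway and of neural stem cells was described in the hippocampus of mice exposed to chronic intermittent ethanol (CIE) or to air (Ctrl). The genes were the ligand Dll1, the receptor Notch1, the target genes Hes5, Hes1 and Hey1, and the stem cell genes Fabp7, Nr2e1, Sox2 and Nes. They are 9 of the 18193 genes that the arrays measured, and 14 of 45037 probe sets carried 1 of these names as their single gene symbol. A probe set is a group of short probes read together as 1 value. For each gene, the probe set was selected on its mean over all 48 arrays, the highest one being used, and these means lay between 7.24 for Nr2e1 and 10.58 for Hey1 on the log2 scale. Those means served only to choose probe sets, and levels of different genes cannot be set against each other on arrays.

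Adult male mice of the C57BL/6J strain made up 8 groups of 6, and each mouse had an array of its own. The 24 CIE mice inhaled ethanol vapor at 10 to 13 mg per liter of air for 16 h a day on 4 days, followed by 7 days of abstinence, for 4 cycles. Before each cycle they were injected with ethanol at 1.6 g/kg and with pyrazole, an inhibitor of alcohol dehydrogenase, at 1 mmol/kg. The 24 Ctrl mice breathed air and received saline with the same pyrazole, so pyrazole was common to all groups. Harvest followed the end of the last chamber session at 0 h, 8 h, 72 h or 7 d. The RNA came from whole dissected tissue, in which fewer cells of a type and less RNA per cell cannot be told apart.

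In the Notch pathway, a ligand such as Dll1 on one cell binds a receptor such as Notch1 on its neighbor. The receptor is then cut inside the membrane, and its freed inner part joins the DNA-binding protein Rbpj to switch on genes of the Hes and Hey families. These encode repressors that hold progenitor cells in an undifferentiated state. In the adult hippocampus, the pathway is best known from the radial glia-like stem cells at the inner edge of the dentate gyrus, which also carry Fabp7, Nr2e1, Sox2 and Nes. Several of these genes, Hes5, Fabp7 and Sox2 among them, are used by astrocytes as well.

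Array medians lay between 6.601 and 6.627, and arrays correlated with each other between 0.974 and 0.998. Markers of dentate granule, CA1 pyramidal, striatal and thalamic neurons were read in each mouse to describe the dissected tissue. The mean of the 5 dentate markers lay at 8.13 in CIE mouse 59 at 7 d and at 7.86 and 7.77 in Ctrl mice 18 and 22 at 7 d, against 9.14 or more in the other mice. In Ctrl mice 18 and 22 the mean of the striatal markers was 8.80 and 9.17. It was 8.04 in Ctrl mouse 16 at 72 h and at most 7.65 in the others. The mean of the thalamic markers was 8.59 in Ctrl mouse 2 at 0 h and at most 7.91 in the others. Values without these 5 mice are given below beside the main calls and the lists that include them. None of the 5 was harvested at 8 h. Leaving them out therefore cannot move a difference at 8 h, only its SE and p. The sample labels name no batch, so 6 sets of arrays were read from equal values and taken as processed together. They are called hybridization sets here, each with 1 mouse per group except for 1 set that held no Ctrl mouse of 0 h. Ctrl mouse 2 of 0 h could not be placed in a set. Its values were given to 6 decimals, against 9 for the other arrays, and sets were read from values equal within 1e-08. Fits with the hybridization set as a block left this mouse out.

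At 0 h, 8 h or both, 4 of the genes were lower in CIE than in Ctrl mice: Hes5, Fabp7, Sox2 and Nr2e1. Genes were called at an adjusted p of 0.01 or less in limma, with adjustment over all probe sets. The members were chosen with earlier results of these data known, so their counts beside shares of all genes, here and below, are a description. At 0 h, 3 of the 9 genes were called, all lower in CIE mice (Hes5, Fabp7 and Sox2), where 1.64% of all genes were called and 0.390% were called lower. At 8 h, 3 of 9 were called, again all lower (Hes5, Fabp7 and Nr2e1), where 2.29% of all genes were called and 0.693% were called lower. At 72 h and at 7 d, 0 of 9 were called by limma, with 3 and 1 at an unadjusted p under 0.05, where 0.00550% and 1.03% of all genes were called. Shares of all genes at an unadjusted p are not given. Counts at an unadjusted p, here and below, therefore cannot be set against all genes. The F test over the 4 times called 4 of 9 (Hes5, Fabp7, Nr2e1 and Sox2), where 6.23% of all genes were called. The mean effect over the 4 times was called for Hes5 (-0.67, adjusted p = 1.31e-07), Fabp7 (-0.34, adjusted p = 6.80e-07), Nr2e1 (-0.32, adjusted p = 0.000382) and Sox2 (-0.14, adjusted p = 0.00831), where 7.90% of all genes were called and 1.91% were called lower. That of Sox2 was not called with the hybridization set as a block (adjusted p = 0.0197), without the 5 mice named above (adjusted p = 0.052) or in 28 of the 48 fits that left out 1 mouse (adjusted p up to 0.0151). The mean effect of Nr2e1 was 0.0801 with its other probe set, which turned the sign, and -0.12 with the mean of both (adjusted p = 0.0733). The mean effects of Hes5, Fabp7 and Nr2e1 without the 5 mice were -0.59, -0.31 and -0.31 (adjusted p of at most 0.00199). With only the 12 arrays of 0 h in the fit, 0 of 9 were called at that time, with adjusted p of 0.0149 for Hes5, 0.0218 for Fabp7 and 0.0452 for Sox2.

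**Figure D1:**
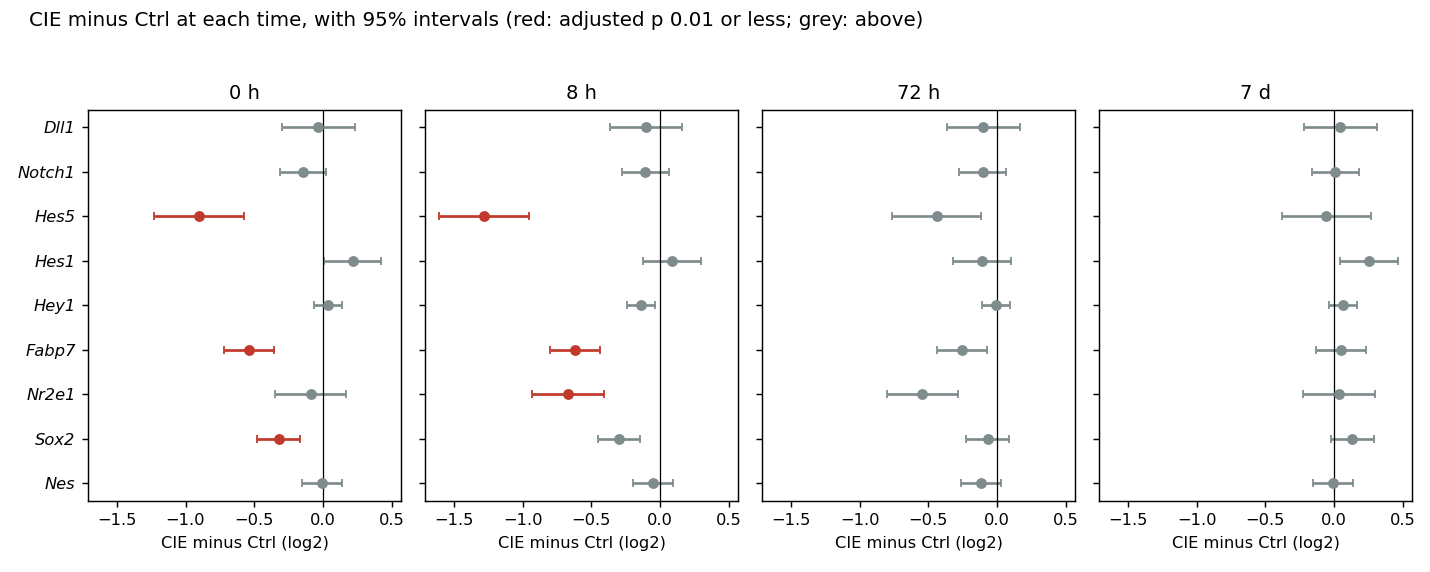
Difference in log2 expression, CIE minus Ctrl, for the 9 genes (rows) at each time (panels), with 95% intervals from the limma model and 6 mice per group. Red points passed an adjusted p of 0.01: Hes5, Fabp7 and Sox2 at 0 h, and Hes5, Fabp7 and Nr2e1 at 8 h, all left of 0.

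Dll1, the ligand, was not called at any time. At 8 h it lay between 7.66 and 8.30 in CIE mice (median 7.78) and between 7.55 and 8.37 in Ctrl mice (median 7.95). The difference was -0.10 (SE 0.13, adjusted p = 0.758, 95% interval -0.37 to 0.16). The other 3 times gave differences between -0.10 and 0.05, with adjusted p of 0.888 or more. CIE and Ctrl mice overlapped at all 4 times.

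Notch1, the receptor, was also not called with its brighter probe set. At 8 h that probe set gave a lowest, median and highest value of 8.75, 8.89 and 9.01 in CIE mice, against 8.89, 8.99 and 9.13 in Ctrl mice, so the groups overlapped. The difference was -0.11 (SE 0.08, adjusted p = 0.559). The dimmer probe set of Notch1, 1418633_at, behaved differently: it lay between 7.28 and 7.60 in CIE mice at 8 h and between 7.75 and 8.03 in Ctrl mice, with no overlap. Its difference was -0.46 (SE 0.09, adjusted p = 0.000649), and its mean effect over the 4 times was -0.29 (adjusted p = 6.04e-06). The 2 probe sets correlated at r = 0.55 over the 48 arrays, so whether Notch1 is counted as lower depends on the probe set. The dimmer one falls outside the rule that chose 1 probe set per gene.

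Hes5 encodes a repressor that is a direct target of Notch signaling, and its log2 differences at 0 h and 8 h were the largest of the 9 genes. At 0 h the lowest, median and highest log2 values were 6.47, 6.68 and 6.85 in CIE mice, against 7.05, 7.56 and 8.08 in Ctrl mice. At 8 h they were 6.07, 6.46 and 6.61 in CIE mice, against 7.36, 7.59 and 8.17 in Ctrl mice. Every CIE mouse was below every Ctrl mouse at both times. Hes5 fell by 0.90 on the log2 scale at 0 h (SE 0.16, 1.87-fold, adjusted p = 0.000695) and by 1.28 at 8 h (SE 0.16, 2.43-fold, adjusted p = 1.32e-06). It follows that the CIE mouse was the lower one in each hybridization set with a mouse of both groups, 5 at 0 h and 6 at 8 h. Both calls held when any 1 of the 48 mice was left out, with adjusted p of at most 0.00351 at 0 h and 1.26e-05 at 8 h.

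At 72 h Hes5 values were 7.63, 7.75 and 7.88 in CIE mice, against 7.89, 8.06 and 8.85 in Ctrl mice. The groups did not overlap, but only narrowly, with a highest CIE value of 7.883 and a lowest Ctrl value of 7.888. The difference of -0.44 (SE 0.16) was not called (adjusted p = 0.321). At 7 d the values were 7.58, 8.07 and 8.46 in CIE mice, against 7.81, 8.01 and 8.58 in Ctrl mice, with a difference of -0.06 (SE 0.16, adjusted p = 0.903). Without the 5 mice whose region markers stood apart, this last difference was 0.24 (adjusted p = 0.558) and that at 0 h was -0.90. The difference at 8 h stayed at -1.28, since none of the 5 was an 8 h mouse.

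Hes5 is read by a second probe set, 1423146_at, which followed the first at r = 0.968 over the 48 arrays. It gave -0.67 at 0 h (SE 0.16, adjusted p = 0.00927) and -1.09 at 8 h (SE 0.16, adjusted p = 2.80e-05). The probes of the first, of the _x_at type, can be shared by related genes, and the second is not of that type.

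The promoters of Hes5 and Fabp7 are shown because these genes had the largest differences at 0 h and were both called at 0 h and 8 h. They span 250 bases before the start of the gene to 50 after it, in RefSeq on GRCm38.p6, with Hes5 at chr4:154960673-154960972 on the + strand and Fabp7 at chr10:57784673-57784972 on the + strand. Capitals mark GTGGGAA, the form of site that Rbpj is known to bind, on either strand (TTCCCAC is its reverse complement).
Hes5 promoter: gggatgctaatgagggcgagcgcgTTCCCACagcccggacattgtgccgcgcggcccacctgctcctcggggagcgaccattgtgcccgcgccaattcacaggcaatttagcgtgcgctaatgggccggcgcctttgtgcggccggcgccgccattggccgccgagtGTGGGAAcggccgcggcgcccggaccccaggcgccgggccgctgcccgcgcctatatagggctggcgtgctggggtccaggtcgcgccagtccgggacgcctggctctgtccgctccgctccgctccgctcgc
Fabp7 promoter: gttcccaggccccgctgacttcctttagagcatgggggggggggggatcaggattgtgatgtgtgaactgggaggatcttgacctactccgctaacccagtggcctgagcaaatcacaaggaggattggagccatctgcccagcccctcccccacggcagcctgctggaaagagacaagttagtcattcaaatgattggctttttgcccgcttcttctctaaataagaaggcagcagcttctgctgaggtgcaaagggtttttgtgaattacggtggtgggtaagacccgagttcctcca
The Hes5 promoter held GTGGGAA at 2 places, beginning 226 bases before the gene's start on the reverse strand and 83 bases before it on the forward strand. Of 32851 promoters of this length, 6.38% held GTGGGAA at least once and 0.256% held it 2 or more times. The set of RefSeq promoters used held 7 of the 9 genes. Hes1 and Hey1 were missing from it, so their promoters were not searched. Of the 7, GTGGGAA was found in that of Hes5. The hexamer CACNAG, the N box bound by Hes repressors, was searched on both strands too, was found in the promoters of Notch1, Dll1 and Fabp7, and occurred in 42.5% of all promoters. None of the members' promoters that were searched held both motifs, and a match is a description of the letters only.

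Hes1, a repressor related to Hes5, was not called. At 0 h its values were 7.78, 7.92 and 8.04 (lowest, median, highest) in CIE mice, against 7.38, 7.69 and 8.01 in Ctrl mice. The groups overlapped, and the difference of 0.22 (SE 0.10, adjusted p = 0.241) was positive, where that of Hes5 was negative. At 8 h and 7 d the differences were 0.09 and 0.26, and at 72 h it was -0.11, with adjusted p of 0.137 or more. The 95% interval of the difference at 8 h was -0.12 to 0.30 for Hes1 and -1.60 to -0.95 for Hes5. Whether Hes5 and Hes1 differ in their response was not tested.

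Hey1, a further target of the pathway, was nearly level across the 8 groups, whose means lay between 10.37 and 10.69. Its lowest mean was that of CIE mice at 8 h, where values of 10.26, 10.34 and 10.50 stood against 10.31, 10.51 and 10.62 in Ctrl mice. That difference of -0.14 (SE 0.05) was not called (adjusted p = 0.114).

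Fabp7, a fatty acid-binding protein of radial glia and astrocytes, was lower in CIE mice at 0 h and 8 h. At 0 h the lowest, median and highest values were 8.99, 9.38 and 9.51 in CIE mice, against 9.75, 9.83 and 10.16 in Ctrl mice. At 8 h they were 8.94, 9.08 and 9.35 in CIE mice, against 9.52, 9.74 and 9.95 in Ctrl mice. The groups did not overlap at either time. Fabp7 fell by 0.54 at 0 h (SE 0.09, 1.45-fold, adjusted p = 0.000291) and by 0.62 at 8 h (SE 0.09, 1.53-fold, adjusted p = 1.97e-05). The CIE mouse was thus also the lower one in 5 of 5 hybridization sets at 0 h and in 6 of 6 at 8 h. When the 5 mice whose region markers stood apart were left out, Fabp7 differed by -0.48 at 0 h (adjusted p = 0.00104) and 0.11 at 7 d (adjusted p = 0.646). At 8 h, where no mouse was left out, the difference stayed at -0.62 (adjusted p = 7.94e-06). Leaving out any 1 mouse kept both calls, with adjusted p of at most 0.00233 at 0 h and 0.000113 at 8 h.

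At 72 h Fabp7 lay at 9.64, 9.71 and 9.97 in CIE mice, against 9.74, 10.03 and 10.24 in Ctrl mice. The CIE mouse was the lower one in 32 of 36 pairs of a CIE with a Ctrl mouse, and the difference of -0.25 (SE 0.09) was not called (adjusted p = 0.298). At 7 d the values were 10.05, 10.34 and 10.51 in CIE mice, against 10.13, 10.25 and 10.46 in Ctrl mice, with a difference of 0.05 (SE 0.09, adjusted p = 0.828).

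Nr2e1, also called Tlx, is a nuclear receptor that keeps neural stem cells dividing, and it was called lower at 8 h. The CIE mice then had 6.24, 6.66 and 7.01, against 6.87, 7.34 and 7.52 in Ctrl mice. In 35 of 36 pairs of a CIE with a Ctrl mouse, and in 5 of 6 hybridization sets, the CIE mouse was the lower one. Nr2e1 fell by 0.67 (SE 0.13, 1.59-fold, adjusted p = 0.00083), and the call held without any 1 mouse (adjusted p at most 0.00443). It was lost with only the 12 arrays of 8 h (adjusted p = 0.0105) and with the mean of its 2 probe sets (-0.36, adjusted p = 0.0129). The call held without the 5 mice, none of them harvested at 8 h (adjusted p = 0.00134). At 72 h the CIE mice had 6.69, 7.19 and 7.30, against 7.29, 7.60 and 7.85 in Ctrl mice, again with the CIE mouse lower in 35 of 36 pairs. The difference of -0.54 (SE 0.13) did not pass at that time (adjusted p = 0.0779), and it passed with array quality weights (adjusted p = 0.00854). At 0 h and 7 d the differences were -0.09 and 0.04 (adjusted p = 0.772 and 0.918).

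The result for Nr2e1 rests on 1 of its 2 probe sets. The other, 1434921_at, had a mean of 5.86, below the median of all probe sets at 6.62, against 7.24 for the one used. It lay between 5.59 and 6.06 in CIE mice at 8 h and between 5.78 and 5.98 in Ctrl mice, a difference of -0.06 (adjusted p = 0.849). The 2 probe sets correlated at r = 0.18 over the 48 arrays.

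Sox2, a transcription factor of stem cells and glia, showed smaller differences with little spread. At 0 h its values were 9.97, 10.05 and 10.14 in CIE mice, against 10.17, 10.42 and 10.51 in Ctrl mice. At 8 h they were 10.19, 10.26 and 10.34 in CIE mice, against 10.39, 10.56 and 10.69 in Ctrl mice. Neither time had overlapping groups. The difference was -0.32 at 0 h (SE 0.08, 1.25-fold, adjusted p = 0.00822), which was called, and -0.30 at 8 h (SE 0.08, 1.23-fold, adjusted p = 0.0138), which was not. The CIE mouse was thus also the lower one in 5 of 5 hybridization sets at 0 h and in 6 of 6 at 8 h. The call at 0 h was lost with the hybridization set as a block, a fit that also left out Ctrl mouse 2 of 0 h (adjusted p = 0.0401). It was lost with array quality weights (adjusted p = 0.0262). It was also lost in 10 of the 48 fits that left out 1 mouse, with adjusted p of up to 0.0281: those without any of the 6 CIE mice of 0 h or without Ctrl mice 2, 12, 38 or 64 of 0 h. Without the 5 mice whose region markers stood apart, Sox2 had -0.32 at 0 h (adjusted p = 0.0133) and -0.30 at 8 h (adjusted p = 0.00892). That fit left out no 8 h mouse, so the difference at 8 h could not move. At 72 h and 7 d the differences were -0.07 and 0.13 (adjusted p = 0.859 and 0.334).

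Nes encodes nestin, an intermediate filament of neural progenitors. At 8 h it lay at 7.12, 7.26 and 7.44 in CIE mice, against 7.22, 7.30 and 7.54 in Ctrl mice. The differences at the 4 times lay between -0.11 and -0.01, with adjusted p of 0.675 or more. Its other 2 probe sets were not called at any of the 4 times either.

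Groups without overlap were found for 3 of 9 genes at 0 h (Hes5, Fabp7 and Sox2), 3 at 8 h (Hes5, Fabp7 and Sox2), 1 at 72 h (Hes5) and 0 at 7 d, in each case with the CIE mice lower. Over all genes, 0.346%, 1.74%, 0.451% and 0.214% had all CIE mice below all Ctrl mice at these times.

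**Figure D2:**
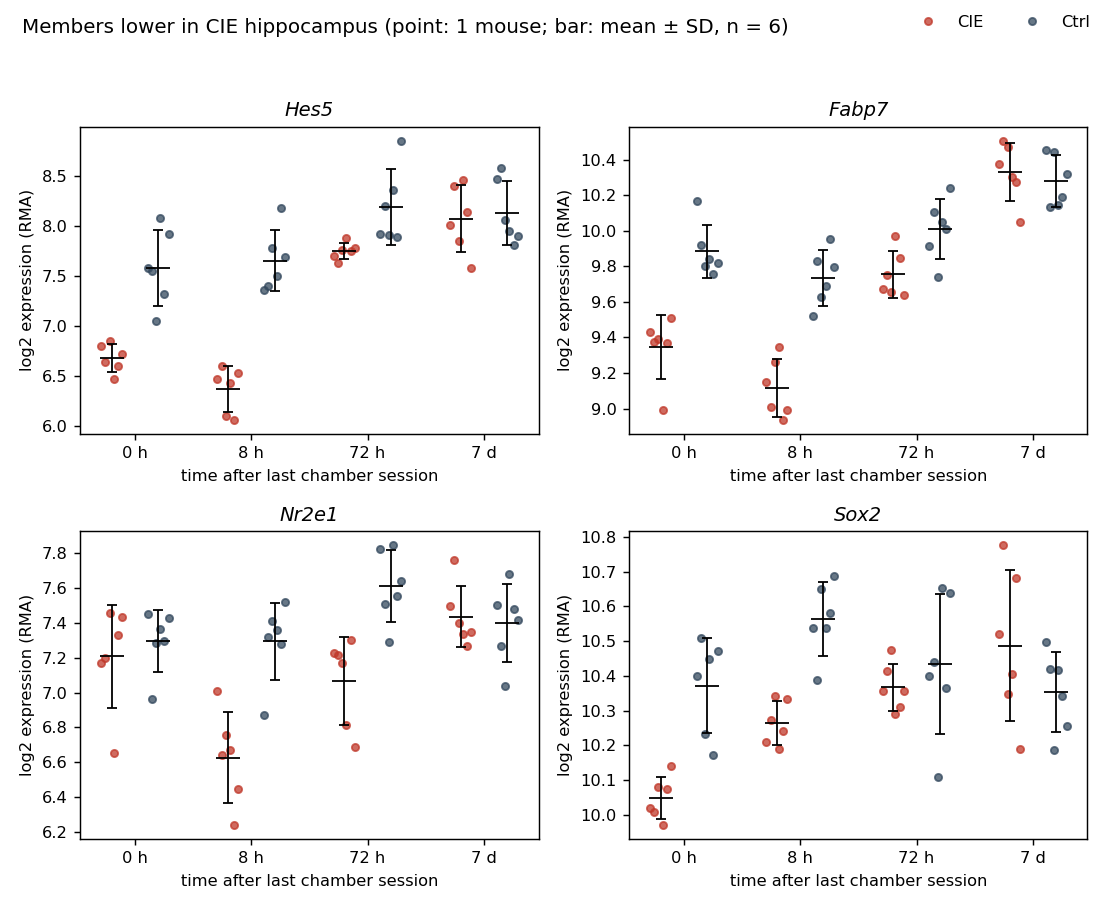
Log2 expression of Hes5, Fabp7, Nr2e1 and Sox2 in each mouse (points) at 0 h, 8 h, 72 h and 7 d, with CIE mice in red left of Ctrl mice in dark blue, and bars for the mean ± SD of 6 mice. At 8 h all 6 CIE mice had less Hes5 (at most 6.61) than any Ctrl mouse (at least 7.36), and at 7 d the groups overlapped for each of the 4 genes.

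**Figure D3:**
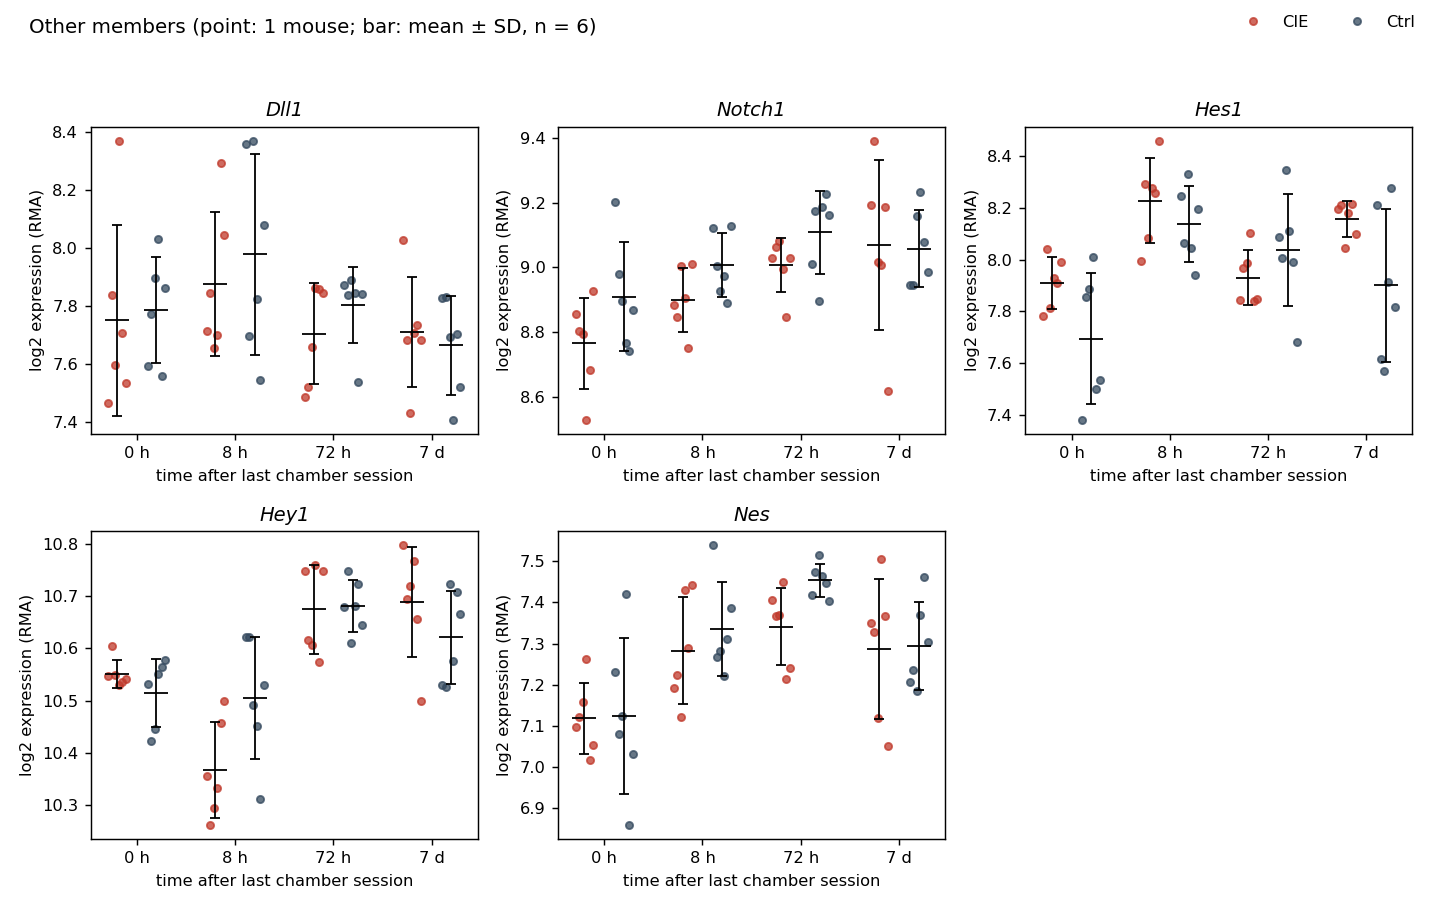
Log2 expression of Dll1, Notch1, Hes1, Hey1 and Nes in each mouse (points) at the 4 times, with CIE mice in red left of Ctrl mice in dark blue, and bars for the mean ± SD of 6 mice. The CIE and Ctrl mice overlapped for each of these genes at each time.

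**Figure D4:**
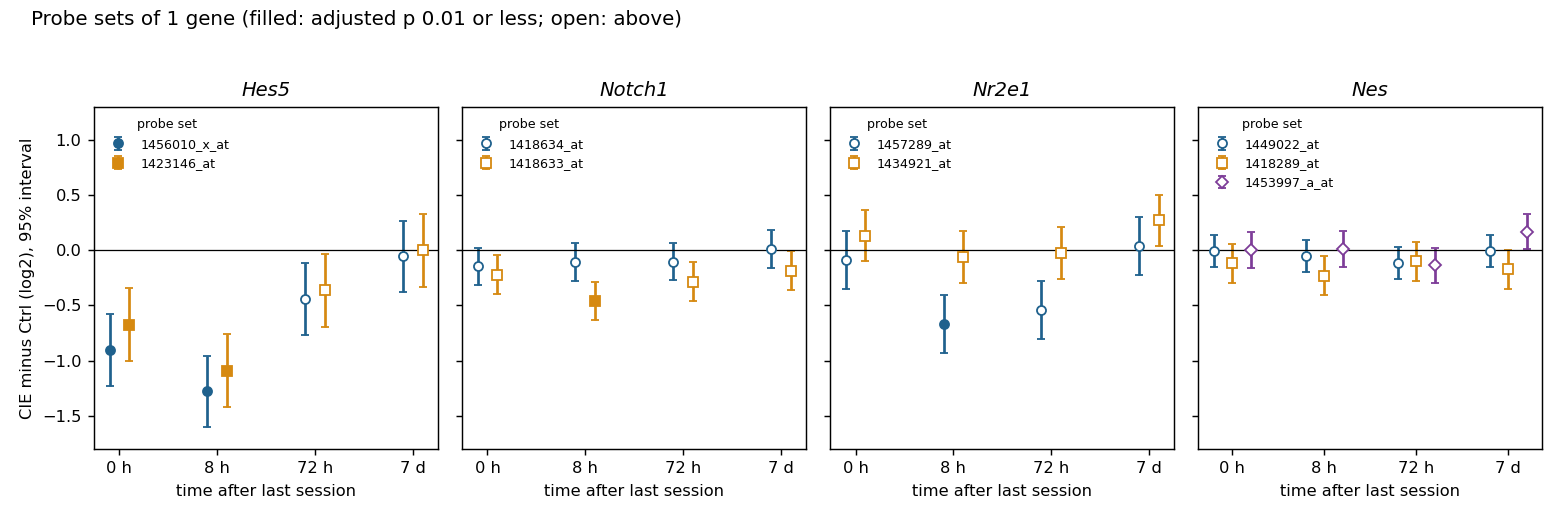
CIE minus Ctrl in log2 expression, with 95% intervals, for each probe set of Hes5, Notch1, Nr2e1 and Nes at the 4 times. Filled points passed an adjusted p of 0.01: both probe sets of Hes5 at 0 h and 8 h, and 1 of 2 probe sets of Notch1 (-0.46) and of Nr2e1 (-0.67) at 8 h.

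Whether the CIE effect itself changed with time was tested as a difference of differences over the 6 pairs of times. From 8 h to 7 d, 2 of 9 genes were called, where 0.0715% of all genes were. The CIE effect on Hes5 was higher at 7 d than at 8 h by 1.22 (SE 0.23, adjusted p = 0.00637) and that on Fabp7 by 0.67 (SE 0.13, adjusted p = 0.00873). Both fell short with the hybridization set as a block (adjusted p = 0.0282 and 0.0225). They were 1.52 (adjusted p = 0.000505) and 0.73 (adjusted p = 0.00473) without the 5 mice whose region markers stood apart. Leaving out 1 mouse ended the call of Hes5 in 14 of 48 fits (adjusted p up to 0.0195) and that of Fabp7 in 31 of 48 (adjusted p up to 0.0253). The other 5 pairs of times had 0 called by limma, with 2 to 5 genes at an unadjusted p under 0.05. In these pairs, 0.0330% (8 h against 0 h), 0.0275% (72 h against 0 h), 0.0660% (7 d against 0 h), 0.0110% (72 h against 8 h) and 0% (7 d against 72 h) of all genes were called.

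Hes5 and Fabp7 were higher in CIE mice at 72 h and 7 d than in CIE mice at 0 h, and Sox2 was higher at 7 d. At 8 h the differences from 0 h were -0.31 for Hes5 and -0.23 for Fabp7, neither of them called (adjusted p = 0.263 and 0.117). Hes5 averaged 7.75 ± 0.08 at 72 h and 8.07 ± 0.33 at 7 d, against 6.68 ± 0.14 at 0 h (SD, n = 6 each). It was thus higher by 1.07 at 72 h (adjusted p = 4.79e-05) and by 1.39 at 7 d (adjusted p = 1.67e-07). Fabp7 was higher by 0.41 at 72 h (SE 0.09, adjusted p = 0.00537) and by 0.98 at 7 d (SE 0.09, adjusted p = 5.52e-10), with the mice of 7 d at 10.05 or above and those of 0 h at 9.51 or below. The call at 72 h was lost with the block (adjusted p = 0.0117) and without CIE mouse 43, 57 or 67 of 0 h or 29, 35 or 61 of 72 h (adjusted p up to 0.0252). Sox2 was higher by 0.44 at 7 d (SE 0.08, adjusted p = 0.00038). Without CIE mouse 59 and the other 4 mice named above, the differences at 7 d were 1.49 for Hes5, 1.04 for Fabp7 and 0.50 for Sox2 (adjusted p of at most 9.45e-05). Nr2e1 fell by 0.58 in CIE mice at 8 h relative to 0 h (SE 0.13, adjusted p = 0.0033). This call was lost without CIE mouse 43 or 72 of 0 h or without CIE mouse 41 or 69 of 8 h (adjusted p up to 0.0154). With the other probe set of Nr2e1 the difference was 0.0699, which turned the sign, and with the mean of both it was -0.26 (adjusted p = 0.0838). Relative to 0 h, CIE mice had 1 of 9 genes called at 8 h (2.95% of all genes), 2 called at 72 h (1.38% of all genes) and 3 called at 7 d (1.16% of all genes).

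In Ctrl mice, Nes differed with harvest time. At 72 h relative to 0 h, 1 of 9 genes was called, Nes, which was higher by 0.33 (SE 0.07, adjusted p = 0.00724), where 0.445% of all genes were called. That call was lost with the hybridization set as a block (adjusted p = 0.0272) and in 11 of 48 fits that left out 1 mouse (adjusted p up to 0.029), those without any of the 6 Ctrl mice of 72 h or without Ctrl mouse 2, 12, 20, 56 or 64 of 0 h. It was not made with the mean of the probe sets of Nes, with array quality weights or without the 5 mice named above. At 8 h and 7 d, 0 of 9 were called by limma, with 3 and 4 at an unadjusted p under 0.05, where 0.456% and 0.264% of all genes were called. Hes5 in Ctrl mice averaged 8.19 ± 0.38 at 72 h and 8.13 ± 0.32 at 7 d, against 7.58 ± 0.38 at 0 h (SD, n = 6 each), with differences of 0.61 (adjusted p = 0.0257) and 0.54 (adjusted p = 0.104). Hes1 in Ctrl mice was 0.44 higher at 8 h (SE 0.10, adjusted p = 0.0103). Fabp7 in Ctrl mice was 0.40 higher at 7 d (SE 0.09, adjusted p = 0.0235). The comparisons within CIE or Ctrl mice share the mice of 0 h.

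In the order of its 8 group means, Hes5 ran highest in Ctrl mice at 72 h (8.19) and 7 d (8.13), followed by CIE mice at 7 d (8.07) and 72 h (7.75), Ctrl mice at 8 h (7.65) and 0 h (7.58), and last CIE mice at 0 h (6.68) and 8 h (6.37). The only neighbors in that order whose mice did not overlap were CIE and Ctrl mice at 0 h. Fabp7 had its order of means led by CIE mice at 7 d (10.33) and closed by CIE mice at 8 h (9.12), and among its neighbors only CIE mice at 0 h and Ctrl mice at 8 h did not overlap. For Sox2, only CIE mice at 0 h, the lowest group, and those at 8 h, next above, did not overlap. Across the 9 genes, 3 of 63 neighboring pairs of groups did not overlap.

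The genes whose pattern over the 48 arrays was most like that of a member were listed by Pearson r, as a description. For Hes5 these were Wfdc18 (r = 0.872), Fabp7 (r = 0.867) and Ddah1 (r = 0.861). For Fabp7 they were Hes5 (r = 0.867), Kcne1l (r = 0.783) and Nrarp (r = 0.781), the last a feedback inhibitor of Notch signaling. Sox2 was followed most closely by Rfx4 (r = 0.804), Notch1 by Tnc (r = 0.791), Hes1 by Mpped1 (r = 0.850), Nr2e1 by Pdcd6ip (r = 0.804), Hey1 by Wnt9a (r = 0.787), Dll1 by Dubr (r = 0.751) and Nes by Ddx54 (r = 0.759). These values hold both the differences between groups and the variation within them.

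Within groups, members were compared over the 48 mice by their deviations from the group means, for 36 pairs of genes. Hes5 and Sox2 had the highest correlation (r = 0.59, permutation p = 0.00047, adjusted over the 36 pairs 0.0103, and rho = 0.56, permutation p = 0.00046, adjusted 0.0162). Without the 2 mice farthest from the median of Hes5, r was 0.54. In a separate fit of the 47 mice in a hybridization set, with the set removed, r was 0.60. Notch1 and Sox2 had r = 0.57 (permutation p = 0.00074, adjusted 0.0103) with rho = 0.45 (permutation p = 0.0043, adjusted 0.0387), and r = 0.40 without 2 mice. Hes5 and Fabp7, alike in their group means, had r = 0.40 within groups (permutation p = 0.0105, adjusted 0.0422) with rho = 0.37 (permutation p = 0.0194, adjusted 0.0999), and r = 0.34 without 2 mice. Dll1 ran against Fabp7 with r = -0.46 (permutation p = 0.00296, adjusted 0.0178) and rho = -0.36 (permutation p = 0.0194, adjusted 0.0999), and r = -0.32 without 2 mice. Hes1 and Nes had r = 0.48 (adjusted permutation p = 0.0103). Notch1 and Fabp7 had r = 0.49, and Hes1 and Dll1 r = 0.41 (adjusted permutation p = 0.014 for each). At an adjusted p of 0.01, 0 of the 36 pairs passed. Deviations from group means correlated with those of the dentate marker mean at r = 0.62 for Notch1, 0.40 for Fabp7 and -0.42 for Dll1. For Hes5 and Sox2 these correlations were -0.10 and 0.15. Values of 1 mouse share an array and a dissection.

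Few other genes of the pathway were called at any 1 time. Lists of Notch ligands, receptors, receptor cleavage, glycosylation and ligand ubiquitination, inhibitors and turnover, nuclear complex, other Hes and Hey genes, stem cell, proliferation and neuroblast genes held 108 genes in 10 lists, of which 101 were measured. At 0 h 1 of these was called by limma, at 8 h 3 were, at 72 h none was and at 7 d 1 was, with 15, 19, 7 and 31 at an unadjusted p under 0.05. The calls are 0.990%, 2.97%, 0% and 0.990% of the 101 genes, against the 1.64%, 2.29%, 0.00550% and 1.03% of all genes called at those times. For the unadjusted counts no share of all genes is given, so they cannot be set against all genes. The median CIE difference of the 101 genes was 0.06, -0.05, 0.01 and 0.07 at the 4 times, against 0.04, 0.01, 0.01 and 0.03 over all genes.

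The 3 genes called at 8 h were lower in CIE mice. They were Nrarp (-0.42, SE 0.10, adjusted p = 0.0069), Fbxw7, a ubiquitin ligase subunit that marks the active Notch fragment for breakdown (-0.42, SE 0.09, adjusted p = 0.00392), and Mib2, a ubiquitin ligase that acts on Notch ligands (-0.19, SE 0.04, adjusted p = 0.00516). At 0 h, Mcm5, a subunit of the DNA replication helicase, was lower by 0.38 (adjusted p = 0.00927). At 7 d, Dtx4, a Deltex-type ubiquitin ligase, was higher in CIE mice by 0.55 (SE 0.11, adjusted p = 0.00274). With the hybridization set as a block, Dtx4 was called (adjusted p = 0.00578) and Nrarp, Fbxw7, Mib2 and Mcm5 were not (adjusted p of 0.0161, 0.0117, 0.012 and 0.0597). Dtx4 at 7 d was 0.37 (adjusted p = 0.0892) and Mcm5 at 0 h was -0.36 (adjusted p = 0.0178) without the 5 mice whose region markers stood apart, neither of them called. The 3 genes of 8 h were called in that fit, which left out no 8 h mouse (adjusted p of at most 0.0063). Over the 4 times, 5 calls were made among the 101 genes. Leaving out 1 mouse gave as few as 1, without CIE mouse 25 or Ctrl mouse 66 of 8 h, and as many as 7, without CIE mouse 59 or Ctrl mouse 70 of 7 d. Calls over all probe sets moved too. At 7 d there were 895 without CIE mouse 59, 1482 without Ctrl mouse 70 and 89 without Ctrl mouse 22. At 8 h there were 635 without CIE mouse 25, 755 without Ctrl mouse 66 and 1392 without Ctrl mouse 4. Whether the lists moved more than all probe sets was not tested.

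Rbpj, the DNA-binding partner of Notch, had CIE differences of 0.08, 0.02, 0.09 and 0.19 at the 4 times and was called at none of them (adjusted p of 0.029 or more). In the mean effect over the 4 times, 9 of the 101 genes were called (8.91%, against 7.90% of all genes), 5 higher and 4 lower in CIE mice. With the hybridization set as a block, 4 were called, 2 higher and 2 lower. Rbpj was among the 9, higher by 0.10 (SE 0.03, adjusted p = 0.00859, and 0.0136 with the block). So were 5 of 9 inhibitors and turnover genes, among them Numbl, a relative of the Notch inhibitor Numb (0.25, adjusted p = 0.00164), and Dtx3, a Deltex-type ubiquitin ligase (0.12, adjusted p = 0.000218), both higher, and Fbxw7, lower (-0.18, adjusted p = 0.00669, and 0.0182 with the block). Of these 5, Numbl and Dtx3 were called with the block, and without the 5 mice whose region markers stood apart Dtx3 was called and Numbl was not (adjusted p = 0.00157 and 0.0163). Among 23 measured neural stem and radial glia genes other than the members, 0 were called at each time by limma, with 3, 3, 2 and 11 at an unadjusted p under 0.05. At 7 d, 20 of these 23 were higher in CIE mice, with a median of 0.16. When the 5 mice whose region markers stood apart were left out, 21 were higher at 7 d, with a median of 0.12 and 3 at an unadjusted p under 0.05. Shares of all genes higher at 7 d, or at that unadjusted p, are not given. The fit without the 5 mice called 1 of the 23 at 8 h, Hopx, which was lower by 0.51 (adjusted p = 0.000524, and 0.0167 with all mice) and is named after its values were seen. No 8 h mouse was left out, so only the SE and p of Hopx could move. The share of all genes called in that fit is not given. At 8 h 6 of 23 were higher, with a median of -0.07. The 9 intermediate progenitor and neuroblast genes had 0 called at each time. Lpar1, a lysophosphatidic acid receptor used to mark hippocampal stem cells, was lower by 0.51 in the mean effect (SE 0.12, adjusted p = 0.00196, and 0.00794 with the block), and is also expressed by oligodendrocytes.

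**Figure D5:**
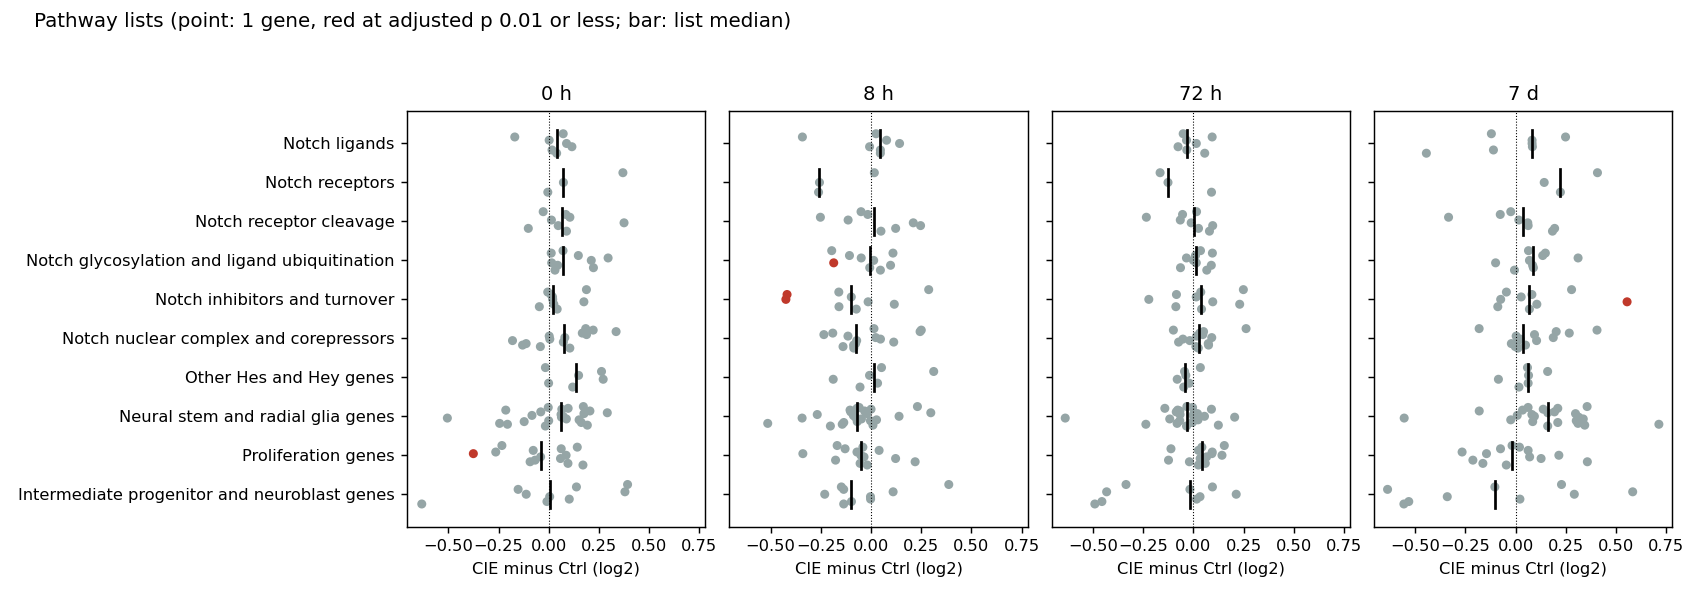
CIE minus Ctrl in log2 expression for the genes (points) of 10 pathway lists (rows) at the 4 times (panels), with a black bar at each list's median and red points at an adjusted p of 0.01 or less. The red points are Mcm5 at 0 h, Mib2, Fbxw7 and Nrarp at 8 h and Dtx4 at 7 d.

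Markers of the cells that could hold the members were set beside these results. Of 11 astrocyte markers, 0 were called at 0 h and 1 at 8 h (Slc1a2, the main glutamate transporter of astrocytes, higher by 0.20, adjusted p = 0.00545, and 0.0144 with the hybridization set as a block, where it was not called), with medians of -0.02 and 0.01. The mean of the astrocyte markers lay between 11.39 and 11.70 in CIE mice at 8 h and between 11.43 and 11.63 in Ctrl mice. At 7 d all 11 were higher in CIE mice, with a median of 0.18 and 0 called by limma (7 at an unadjusted p under 0.05, with no share of all genes given). The mean of these markers was 11.18 and 11.09 in Ctrl mice 18 and 22 of 7 d, against 11.43 or more in the other mice of that time. With the 5 mice whose region markers stood apart left out, all 11 were higher, with a median of 0.11 and 1 at an unadjusted p under 0.05.

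The 5 dentate granule neuron markers were all lower in CIE mice at 8 h, with a median of -0.39, and 0 were called by limma (0 at an unadjusted p under 0.05). Their mean lay between 9.14 and 10.81 in CIE mice at 8 h and between 9.55 and 10.87 in Ctrl mice, a wide and overlapping range. With this mean entered as a covariate, Hes5 differed by -0.91 at 0 h (adjusted p = 0.000491) and -1.29 at 8 h (adjusted p = 1.43e-06). Fabp7 differed by -0.53 and -0.59 (adjusted p = 0.000118 and 1.26e-05), and Nr2e1 by -0.64 at 8 h (adjusted p = 0.000879). Sox2 differed by -0.32 at 0 h in that fit (adjusted p = 0.00692). These differences were close to those without the covariate. The mean of the 4 CA1 markers was 10.45 in CIE against 9.98 in Ctrl mice at 0 h and 10.63 against 10.34 at 8 h. At 72 h it was 10.16 against 10.27, and at 7 d 10.64 against 9.76, with overlapping ranges at each time. Of the 4 markers, 0 were called at each time, with 1, 0, 0 and 3 at an unadjusted p under 0.05. The CA1 mean was not entered as a covariate.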

How the data were processed

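Hippocampal RNA of 48 mice was measured on Affymetrix mouse genome arrays, 1 per mouse. The authors deposited log2 values after RMA background correction with quantile normalization within hybridization batches, quantile normalization over all arrays and ComBat batch adjustment. Batch adjustment can shrink or share variation between arrays, and software versions are not given in the sources. Precision is limited by how many arrays a group has. Of 45037 probe sets, 34945 had 1 platform gene symbol, 932 had several and 9160 had none. The values were used as deposited.

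A model of the 8 group means was fitted to all probe sets with limma 3.58.1 (lmFit and eBayes, R 4.3.3). Tests were two-sided, p was adjusted by Benjamini-Hochberg over all probe sets, and calls were made at 0.01. Contrasts were CIE minus Ctrl at each time, their mean, their differences between times, an F test, and each later time minus 0 h within CIE or Ctrl mice. The fit was tested on simulated data, in which it recovered 72% of genes changed by 0.5 and 99% of those changed by 1 on the log2 scale at 8 h, with 45037 probe sets tested. Correlations used 100000 permutations within groups (Python 3.11.15, numpy 2.4.6, scipy 1.17.1), adjusted over 36 pairs.

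Hybridization sets were read from the values, since quantile normalization within a batch leaves equal values: arrays sharing at least 5 values within 1e-08 were joined, which gave 6 sets of 47 arrays. The array of Ctrl mouse 2 of 0 h, given to fewer decimals, could not be joined and was left out of the block fits. The limma p-values set a difference between group means against the spread between mice within groups. That spread is the one left after the authors' batch adjustment, and the main fit had no term for batches. The members and lists were chosen with earlier results of these data known. All 9 members were named, with up to 4 called genes per pathway list, up to 2 per marker list and up to 3 genes of like pattern per member. Alternatives were the block by hybridization set, other probe sets of a gene or their mean, a filter on dim probe sets, only the 12 arrays of a time, another quantile normalization, trended and robust variances, array weights and leaving out each mouse. Leaving out the 5 mice whose region markers stood apart and the dentate marker mean as a covariate were chosen after seeing the data.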

Additional observations from a re-analysis of the deposited data

Results flagged for a closer look

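Among the 72 groups of 6 mice (9 genes in 8 groups), 7 held a mouse far from the others, where chance gives about 1 in 20. The measure is the mouse's gap to its nearest neighbor as a share of the group's whole range; it was above Dixon's critical value for 6 samples in each case named. In CIE mice at 0 h, mouse 57 was lowest for Fabp7 (8.99, gap 0.728) and for Nr2e1 (6.66, gap 0.64), and mouse 19 was highest for Hey1 (10.61, gap 0.738). In CIE mice at 72 h, mouse 61 was lowest for Notch1 (8.85, gap 0.627). In Ctrl mice, mouse 52 at 72 h was lowest for Dll1 (7.54, gap 0.848), mouse 12 at 0 h for Nr2e1 (6.96, gap 0.668) and mouse 4 at 8 h for Nr2e1 (6.87, gap 0.631). Without CIE mouse 57, Fabp7 was still called at 0 h.

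The CIE effect differed between times for Hes5, higher at 7 d than at 8 h by 1.22, and for Fabp7, by 0.67. In these comparisons the CIE mice were below all Ctrl mice at 8 h and overlapped with them at 7 d.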

How the results depend on the processing

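No paired analysis was possible because each mouse had its own number in the labels and the groups shared none. The hybridization set, read from the values, served as a block in its place, in fits without Ctrl mouse 2 of 0 h, which was in no set. The calls of Hes5 at 8 h and Fabp7 at 8 h held in every alternative run. With only the 12 arrays of a time, 0 genes were called at 0 h and Nr2e1 missed the threshold at 8 h (adjusted p = 0.0105), and with the mean of its probe sets Nr2e1 had an adjusted p of 0.0129. Array weights called 1 gene at 72 h. The 2 calls of change between times became 0 with the block and 1 with the dentate covariate. The 1 call in Ctrl mice over harvest times became 0 with the block, the mean of probe sets, array weights or without the 5 mice whose region markers stood apart, 2 with another quantile normalization and 3 with the dentate covariate. The 5 calls in pathway lists became 8 with array weights and 1 with the block or 12 arrays. Leaving out 1 mouse gave 0 to 2 calls of change, 0 to 3 in Ctrl mice and 1 to 7 in pathway lists. The shares of all genes called in these alternative fits are not given here. These counts therefore cannot tell the members or lists from all genes.

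Signs turned only for differences that were not called in the reported fit, apart from those of Nr2e1 in the mean effect and at 8 h in CIE mice. With another probe set, Nr2e1 had 0.13 at 0 h, 0.0801 in the mean effect and 0.0699 at 8 h relative to 0 h in CIE mice, and with the mean of both it had 0.0221 at 0 h. Nes had 0.00142 at 0 h, 0.0113 at 8 h, 0.17 at 7 d and 0.0113 in the mean effect with its dimmest probe set, 0.0217 at 0 h with the block, and 0.0152 at 0 h and 0.00377 at 7 d without the 5 mice. Hes5 at 7 d had 0.000869 with the other probe set, 0.10 with array weights and 0.24 without the 5 mice. Notch1 at 7 d had -0.18 with the other probe set, -0.0861 with the mean of both and -0.0305 with the dentate covariate. Hey1 at 72 h had 0.00715 without the 5 mice. Leaving out 1 mouse gave, at 0 h, -0.157 to 0.0234 for Dll1, -0.157 to 0.0204 for Nr2e1 and -0.0593 to 0.053 for Nes. At 72 h it gave -0.023 to 0.0141 for Hey1, and at 7 d -0.133 to 0.0436 for Hes5, -0.0537 to 0.101 for Notch1, -0.0171 to 0.102 for Dll1, -0.034 to 0.0955 for Nr2e1 and -0.051 to 0.0399 for Nes. The cause of these changes was not tested.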
